A study of Mus musculus with 36 samples.

Results

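Mouse cells grown in the medium for epiblast stem cells (EpiSC; Activin A with FGF2) were compared with and without the gene Setd1a. The comparison holds 4 of the 36 libraries of the series, chosen by their titles: 2 from cells labelled Setd1a KO with tamoxifen and 2 from wild-type cells (WT) of the Setd1a set, with no tamoxifen in their labels. The sample notes call the cells epiblast-like stem cells. RNA was poly(A) selected and sequenced by strand, and every gene was compared. The series also has Setd1a knockout and wild-type cells in 2i medium (LIF with 2 inhibitors, PD0325901 and CT99021) and in FCS medium (LIF with serum), and 2 further lines, Bod1L and Mll2. Tamoxifen and genotype cannot be told apart, and the Cre, the deleted exons and the time after treatment are not stated in the labels. Both replicates are labelled biological, nothing says how separately they were grown, and p-values measure only the spread between such cultures.

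SETD1A is the catalytic subunit of one of the SET1/COMPASS complexes, which methylate lysine 4 of histone H3 (H3K4), a mark found at the start of active genes. The related enzymes are SETD1B, in a sister complex, and the MLL proteins, among them the product of Kmt2b. BOD1L works with SETD1A in protecting stalled replication forks. EpiSC represent the primed state of pluripotency, close to the epiblast after implantation, and are expected to carry Otx2 and Fgf5 and to have less of the naive factors of cells kept in 2i.

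The 4 libraries held 25.2 M to 34.1 M counts. Setd1a (ENSMUSG00000042308, GRCm38 chromosome 7, 127776670 to 127800122) stood at 39.8 and 37.7 CPM in the knockout libraries (counts over the TMM-scaled library size in M) and at 48.1 and 40.9 CPM in the wild-type libraries, replicates 1 and 2 in that order here and below. Both knockout values lay under both wild-type values, but the log2 fold change of -0.20 ± 0.241 (SE) did not pass the test (adjusted p = 0.791, edgeR). Gene totals also count exons outside a deletion, so this is a weak check of the loss. Setd1b had 55.7 and 53.8 against 47.0 and 43.6 CPM (adjusted p = 0.749), Bod1l 288 and 287 against 227 and 223 CPM (adjusted p = 0.587), and Kmt2b 177 and 182 against 155 and 156 CPM (adjusted p = 0.826). None of the 20 COMPASS and related subunits tested, and none of the 5 H3K4 demethylases, was called in either direction, also with replicates as pairs.

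The cell type label was only partly borne out by markers, and replicates stood apart in both genotypes. Otx2, a transcription factor of the primed epiblast, was at 0.588 CPM in knockout replicate 1 and 3.53 CPM in wild-type replicate 1, against 42.0 and 54.1 CPM in the replicates 2. Fgf5, the classical epiblast ligand, was at 4.54 and 12.8 CPM in knockout and 3.92 and 14.8 CPM in wild-type cells. Among wild-type cells, Otx2 was higher in EpiSC medium than in the mean of 2i and FCS (log2 difference 3.63, adjusted p = 0.0382). Wild-type Otx2 was at 0.0916 to 0.139 CPM in 2i and 20.5 to 70.7 CPM in FCS. It was thus above 2i but not above FCS. The naive factors Esrrb (-1.40, adjusted p = 0.00773), Tfcp2l1 (-2.21, adjusted p = 0.0299) and Zfp42 (-2.37, adjusted p = 0.0499) were lower in EpiSC medium. Fgf5 (2.29, adjusted p = 0.0548) did not pass the test, and wild-type cells in FCS had 1.45 to 22.7 CPM of it. Of the other EpiSC markers, Pou3f1 (1.18), Dnmt3b (0.53), Sox3 (1.53), Zic2 (-0.36) and Lef1 (-0.14) did not pass this test between media. Nor did the naive factors Klf4 (-1.38), Tbx3 (-1.57) and Dppa3 (-1.92). The pluripotency factor Sox2 was lower in EpiSC medium (-1.32, adjusted p = 0.0135) and Lin28a higher (1.60, adjusted p = 0.0169). Pou5f1, the core pluripotency factor, ran from 156 CPM in knockout replicate 1 to 1296 CPM in wild-type replicate 2. All 12 libraries in EpiSC medium carry later library numbers than nearly all others, so medium and library series cannot be told apart, but the 4 libraries compared here share theirs.

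At an adjusted p below 0.05 (edgeR over all 36 libraries, 23501 genes tested), 328 genes were lower (1.4%) and 33 higher (0.14%) in knockout cells. The lowered genes fell by a median of 1.63 on the log2 scale, with 308 changed more than 2-fold and 87 more than 4-fold. Of the lowered genes 293 were protein-coding and 15 processed pseudogenes, and they lay on 20 chromosomes. The median over all genes tested was 0.08. In replicate 1 alone the lowered genes had a median difference of -1.48 and in replicate 2 of -1.68, and all 328 lay below 0 in both. Without any test, both knockout libraries lay below both wild-type libraries in 3659 genes (15.6%) and above them in 4411 genes (18.8%).

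With replicate numbers as pairs, 1333 genes were lower (5.67%) and 1468 higher (6.25%), so the pairs raised the higher count above the lower. Each of the 328 and 33 genes was called in the same direction with pairs. Without knockout replicate 1, 101 genes were lower (0.41%) and 1 was higher (0.00406%), and 96 of the 328 lowered genes were kept. Without wild-type replicate 2, 119 of the 328 were kept, and without knockout replicate 2 or wild-type replicate 1, 180 and 256. A core of 79 lowered genes, and none of the raised genes, was called without each of the 4 libraries in turn. Fitted on the 4 libraries alone, no gene was called (714 lower and 383 higher of 18554 genes at an unadjusted p below 0.05).

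**Figure D1:**
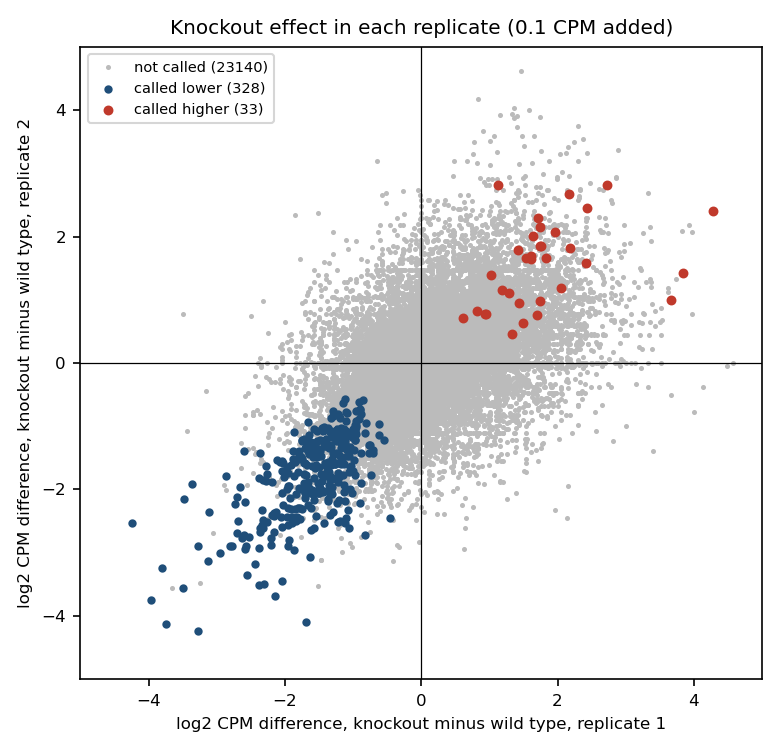
Log2 CPM difference of knockout minus wild type in replicate 1 (horizontal) and replicate 2 (vertical) for the 23501 genes tested, with 0.1 CPM added. Each point is a gene. The 328 genes called lower and the 33 called higher lie on their own side of 0 in both replicates, beside many genes that are not called.

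The promoter windows of 5 of these genes show what was read at their starts: Cbr4, Anapc13, Rad51c and Mcm8 were lowered and Mdm2 was raised. The last 3 lowered genes start head to head with another gene. Each is the RefSeq window on GRCm38.p6 from 250 bases before to 50 bases after the start, in the direction of the gene, with each CpG in capitals. Cbr4 spans chr8:61487484-61487783 on the plus strand with 6 CpG, Anapc13 chr9:102626046-102626345 on the plus strand with 42, Rad51c chr11:87404905-87405204 on the minus strand with 24, Mcm8 chr2:132815891-132816190 on the plus strand with 30, and Mdm2 chr10:117710709-117711008 on the minus strand with 35.
Cbr4: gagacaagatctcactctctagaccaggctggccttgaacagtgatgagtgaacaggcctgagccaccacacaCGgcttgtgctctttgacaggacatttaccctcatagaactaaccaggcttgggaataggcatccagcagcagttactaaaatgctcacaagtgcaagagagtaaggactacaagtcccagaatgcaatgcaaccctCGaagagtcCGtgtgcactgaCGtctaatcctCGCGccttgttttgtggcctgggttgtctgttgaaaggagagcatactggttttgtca
Anapc13: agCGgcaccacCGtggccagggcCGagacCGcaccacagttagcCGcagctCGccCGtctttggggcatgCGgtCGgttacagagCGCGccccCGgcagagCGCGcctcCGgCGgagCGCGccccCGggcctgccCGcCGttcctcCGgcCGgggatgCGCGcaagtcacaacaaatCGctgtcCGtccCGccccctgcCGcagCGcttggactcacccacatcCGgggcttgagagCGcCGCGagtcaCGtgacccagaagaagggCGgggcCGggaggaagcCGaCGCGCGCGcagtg
Rad51c: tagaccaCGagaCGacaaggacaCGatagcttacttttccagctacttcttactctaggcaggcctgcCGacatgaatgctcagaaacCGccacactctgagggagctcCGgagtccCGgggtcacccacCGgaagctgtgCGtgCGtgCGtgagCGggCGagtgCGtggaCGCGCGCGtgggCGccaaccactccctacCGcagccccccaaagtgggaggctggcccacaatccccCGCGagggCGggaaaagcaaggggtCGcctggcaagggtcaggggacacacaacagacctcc
Mcm8: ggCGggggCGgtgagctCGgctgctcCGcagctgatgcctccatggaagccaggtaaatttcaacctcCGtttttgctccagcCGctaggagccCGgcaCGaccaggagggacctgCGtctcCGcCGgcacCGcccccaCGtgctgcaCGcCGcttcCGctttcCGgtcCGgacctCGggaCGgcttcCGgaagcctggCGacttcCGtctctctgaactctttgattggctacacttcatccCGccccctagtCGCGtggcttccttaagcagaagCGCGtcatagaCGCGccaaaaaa
Mdm2: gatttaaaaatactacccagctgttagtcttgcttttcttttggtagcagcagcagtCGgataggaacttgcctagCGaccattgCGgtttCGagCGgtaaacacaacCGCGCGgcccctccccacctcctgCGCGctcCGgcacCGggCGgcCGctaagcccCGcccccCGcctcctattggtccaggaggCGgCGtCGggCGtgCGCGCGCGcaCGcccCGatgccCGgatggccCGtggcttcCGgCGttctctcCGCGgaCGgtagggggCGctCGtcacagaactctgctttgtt

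Windows were matched for 242 of the 293 lowered protein-coding genes (82.6%) and for 6996 of the 8682 tested protein-coding genes whose wild-type level was at least 14.3 CPM, the lower quartile of the lowered genes (80.6%), called expressed genes here. That floor has no upper bound and is not a match of levels. The lowered genes had a median of 22 CpG per window and the expressed genes 23. Windows with fewer than 5 CpG made up 2.48% and 3.04%. The motifs below were searched on both strands, and no overlap among them was removed. The ETS site CCGGAAGT was in 16.1% of lowered and 10.2% of expressed-gene windows, and the NRF1 core GCGCATGC in 10.7% and 6.46%. The GC box GGGCGG was in 65.7% and 70.4%, the NFY site CCAAT in 36.8% and 39.8%, the TATA box TATAAA in 4.13% and 5.85%, and the palindromic element TCGCGAGA in 2.48% and 2.99%. These shares were not tested. Of all 16731 tested protein-coding genes 77.5% had a window, and of the 24 raised ones 70.8%, which is too few for a comparison.

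The genes of lowest log2 fold change were nearly silent in knockout cells. Cbr4, for a mitochondrial carbonyl reductase (chromosome 8, 61487734 to 61506694), had 1.29 and 0.712 CPM in knockout and 13.3 and 15.2 CPM in wild-type cells. Both replicates of a genotype lay close together and the groups far apart, and the log2 fold change was -3.83 ± 0.544 (adjusted p = 3.07e-04). Det1, whose product joins a COP1 ubiquitin ligase (chromosome 7, 78821547 to 78847263), had 1.29 and 1.53 against 10.7 and 12.9 CPM (-3.06 ± 0.28, adjusted p = 2.05e-06). Anapc13, for a small subunit of the anaphase-promoting complex (chromosome 9, 102626296 to 102634425), had 3.76 and 2.74 against 19.0 and 32.0 CPM (-2.97 ± 0.448, adjusted p = 5.29e-04). Hsf2bp, whose product binds BRCA2 (chromosome 17, 31944769 to 32034508), had 1.14 and 1.42 against 23.4 and 8.72 CPM (-3.65 ± 0.56, adjusted p = 5.80e-04). Here the wild-type replicates differed more than the knockout replicates, and the groups did not overlap.

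Ccdc191 (1.45 and 2.31 against 21.5 and 22.7 CPM) and Ccdc91 (2.51 and 3.35 against 18.2 and 25.4 CPM) fell by 3.55 and 2.89 on the log2 scale. C330018D20Rik differed between the replicates, with 10.6 and 2.69 CPM in wild-type cells, and fell by 4.26 to 0.588 and 0.107 CPM. Ccdc91, Ccdc191, C330018D20Rik, Cbr4, Det1, Anapc13 and Hsf2bp kept their calls without each library in turn, at an adjusted p of at most 0.0371. C8g, for a chain of complement component 8, had 0.157 and 0.285 against 2.79 and 4.42 CPM (-4.00 ± 0.59, adjusted p = 4.40e-04) and also kept it. Oxld1 (chromosome 11, 120456606 to 120458068) had the lowest log2 fold change of the called protein-coding genes whose groups did not overlap, -4.34 ± 0.708 (adjusted p = 0.00113). It had 0.157 and 0.570 against 3.35 and 11.7 CPM, and without knockout replicate 1 its adjusted p was 0.0595. Gm5617 (-3.34), Tceanc (-3.22), Pgbd1 (-3.19), 2310039H08Rik (-3.08) and Wdr93 (-2.89) also lost their calls without knockout replicate 1, and each of them without at least 1 other library.

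**Figure D2:**
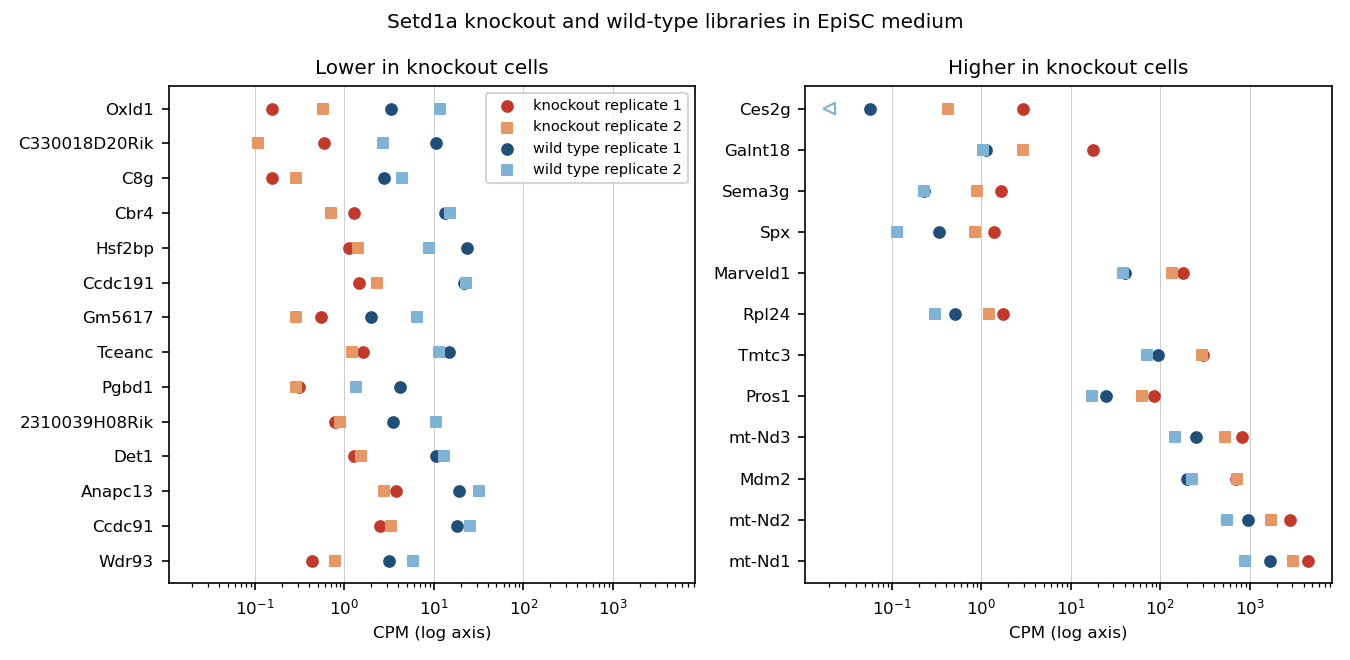
CPM on a log axis of the 14 lowest (left) and 12 highest (right) called protein-coding genes, 1 point per library. An open triangle at the left edge marks Ces2g at 0 in wild-type replicate 2. For each gene both knockout points lie on the same side of both wild-type points, which the choice of these genes required, and Galnt18 shows knockout replicate 1 alone far to the right.

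Genes of DNA repair by homologous recombination, in which a break is mended by copying the sister chromatid, were often lowered. Of 40 genes tested 11 fell and none rose, with a median of -0.44 against 0.08 over all genes, and 33 were below 0. For this list and those below, the shares over all genes were 1.4% lower and 0.14% higher, or 5.67% and 6.25% with pairs. Mcm8, for a helicase of this pathway, had 8.19 and 17.6 against 54.1 and 77.1 CPM (-2.35 ± 0.318, adjusted p = 1.60e-04). Rad51c, for a strand-exchange cofactor, had 4.54 and 3.77 against 23.8 and 23.7 CPM (-2.51 ± 0.564, adjusted p = 0.0194), and Rad51b 0.313 and 1.14 against 3.50 and 6.26 CPM (-2.73 ± 0.575, adjusted p = 0.012). In each of the 3 the groups did not overlap. Rad50, part of the complex that senses breaks, fell from 162 and 116 CPM to 35.5 and 31.4 CPM (-2.06 ± 0.429, adjusted p = 0.0112).

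Brca2, for a central mediator of strand exchange, stood at 41.4 and 33.8 CPM in knockout and 131 and 88.8 CPM in wild-type cells (-1.55 ± 0.286, adjusted p = 0.00374), and its partner Palb2 at 12.9 and 13.0 against 34.3 and 29.9 CPM (-1.31 ± 0.198, adjusted p = 5.29e-04). Fignl1 (-1.74), Abraxas1 (-1.66), Gen1 (-1.50), Babam2 (-1.50) and the nuclease gene Eme1 (-1.37) were the others that fell. Brca1 had 145 and 114 against 223 and 98.9 CPM (-0.32, adjusted p = 0.719), where the groups overlapped. Pairs called 16 of the 40 lower. Without knockout replicate 1, 6 were called and the list's median was -0.22. Mcm8 kept its call without each library, but Rad51b, Rad51c and Rad50 did not.

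In the Fanconi anaemia pathway, which repairs crosslinks between DNA strands, 4 of 18 genes fell and none rose (median -0.28). Fancd2, for the protein that the pathway marks with ubiquitin, had 25.8 and 32.8 against 106 and 108 CPM (-1.87 ± 0.263, adjusted p = 2.70e-04). Its partner Fanci had 31.6 and 43.9 against 72.3 and 80.0 CPM (-1.01 ± 0.237, adjusted p = 0.0261), the nuclease gene Fan1 2.74 and 2.17 against 10.9 and 8.60 CPM (-1.99 ± 0.376, adjusted p = 0.00464), and Fance 12.0 and 18.9 against 24.5 and 58.9 CPM (-1.43 ± 0.311, adjusted p = 0.015). Without knockout replicate 1 only Fancd2 kept its call. The 2 most abundant members, Usp1 and Wdr48, changed by -0.19 and 0.19 and were not called.

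Of 39 excision and mismatch repair genes 4 fell. Parp2, for a sensor of single-strand breaks, had 16.9 and 18.1 against 48.8 and 50.5 CPM (-1.51 ± 0.219, adjusted p = 3.63e-04). Nthl1, for a base excision glycosylase, rested on wild-type replicate 2 (8.36 and 37.9 CPM against 6.07 and 6.87 CPM, adjusted p = 0.0394), without which its adjusted p was 0.907. The glycosylase gene Ogg1 (-1.62) also lost its call without that library (adjusted p = 0.598), and both genes lost theirs without knockout replicate 1 (0.362 each) or knockout replicate 2 (0.105 for Nthl1 and 0.123 for Ogg1). The abundant Msh6 (0.03) and Ddb1 (0.15) were not called. With pairs 12 of the 39 fell, against 5.67% of all genes. Ercc4 (0.62) and Ercc5 (0.80), which cut around bulky lesions, were the 2 that rose, against 6.25% of all genes.

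End joining had 3 of 11 genes lower, Xrcc5 (37.5 and 41.4 against 118 and 112 CPM, -1.54), Poll (-1.84) and Xrcc4 (-1.16), and checkpoint signalling 1 of 19, Rad1 (-1.20, adjusted p = 0.00601). Each of these 4 lost its call without knockout replicate 1. Mdc1, an abundant checkpoint mediator, had 89.3 and 130 against 261 and 253 CPM (-1.23). Its adjusted p was 0.267 without pairs and 0.00257 with pairs. Pairs called 4 of the 19 checkpoint genes lower.

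DNA replication genes lay mostly below 0 (39 of 42, median -0.49), but only 2 were called: Orc5, of the origin recognition complex (16.6 and 21.9 against 60.1 and 65.0 CPM, -1.70 ± 0.259, adjusted p = 5.59e-04), and the clamp loader gene Rfc5 (-0.93, adjusted p = 0.0182, lost without knockout replicate 1 or wild-type replicate 2). With pairs 16 fell, among them Orc3 (-1.23), Pold1 (-0.88), Pcna (-0.73), Mcm5 (-0.69) and Mcm2 (-0.64). The median difference was -0.73 in replicate 1 and -0.23 in replicate 2, and without knockout replicate 1 it was -0.22.

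Nuclear genes for mitochondrial protein synthesis formed a further lowered group. Of 21 genes that charge or modify mitochondrial tRNAs 6 fell, none rose, and the median was -0.91. Gatb, for a subunit of the glutamyl-tRNA amidotransferase, had 1.96 and 2.28 against 12.2 and 18.1 CPM (-2.84 ± 0.323, adjusted p = 2.86e-05). Ears2, for the mitochondrial glutamyl-tRNA synthetase, had 4.19 and 3.45 against 19.7 and 26.1 CPM (-2.58 ± 0.328, adjusted p = 9.20e-05). Both fell to a similar degree in both replicates. Iars2 (-1.82), Pars2 (-1.51) and Tars2 (-1.04) fell as well. Gatb, Ears2 and Iars2 kept their calls without each library. Pairs called 11 lower and 1, Mars2 (0.64), higher.

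In the mitochondrial ribosome 9 of 78 genes fell and none rose (median -0.53, 70 below 0). Mrpl11 had 7.36 and 9.22 against 43.0 and 62.4 CPM (-2.67 ± 0.351, adjusted p = 1.25e-04). Mrpl24 had 27.9 and 27.9 against 78.8 and 117 CPM (-1.81 ± 0.219, adjusted p = 5.25e-05), and Mrpl2 12.0 and 12.0 against 45.1 and 65.4 CPM (-2.20 ± 0.4, adjusted p = 0.00317). The other 6 called, Mrpl36, Mrps14, Mrpl42, Mrps27, Mrpl10 and Mrps5, changed by -1.53 to -0.88. With pairs 28 of 78 were lower. Without knockout replicate 1 the list held 2 calls, Mrpl11 and Mrpl24, and a median of -0.38. Of 36 nuclear subunits of respiratory complex I, 2 fell, Ndufb9 (-1.29) and Ndufv3 (-1.18), with a list median of -0.64. With pairs there were 10, and without knockout replicate 1 none.

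The synthetases of the cytosol showed 1 call in 19 genes: Dars, the cytosolic aspartyl enzyme, had 40.0 and 60.9 against 194 and 188 CPM (-1.92 ± 0.262, adjusted p = 1.72e-04) and kept it without each library. The list's median was -0.09. In the assembly of N-glycans on dolichol, 2 of 23 genes fell, among them Alg8, for a glucosyltransferase (4.78 and 0.997 against 28.7 and 11.1 CPM, -2.79 ± 0.526, adjusted p = 0.00464). Alg8 lost its call without wild-type replicate 1 (adjusted p = 0.0731). In cholesterol synthesis 1 of 22 fell, Fdps (-1.23), and 7 with pairs, including Mvd (-1.39), Lss (-1.20) and Hmgcs1 (-0.77). Fdps lost its call without wild-type replicate 2, knockout replicate 1 or knockout replicate 2 (adjusted p = 0.486, 0.469 and 0.0546).

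**Figure D3:**
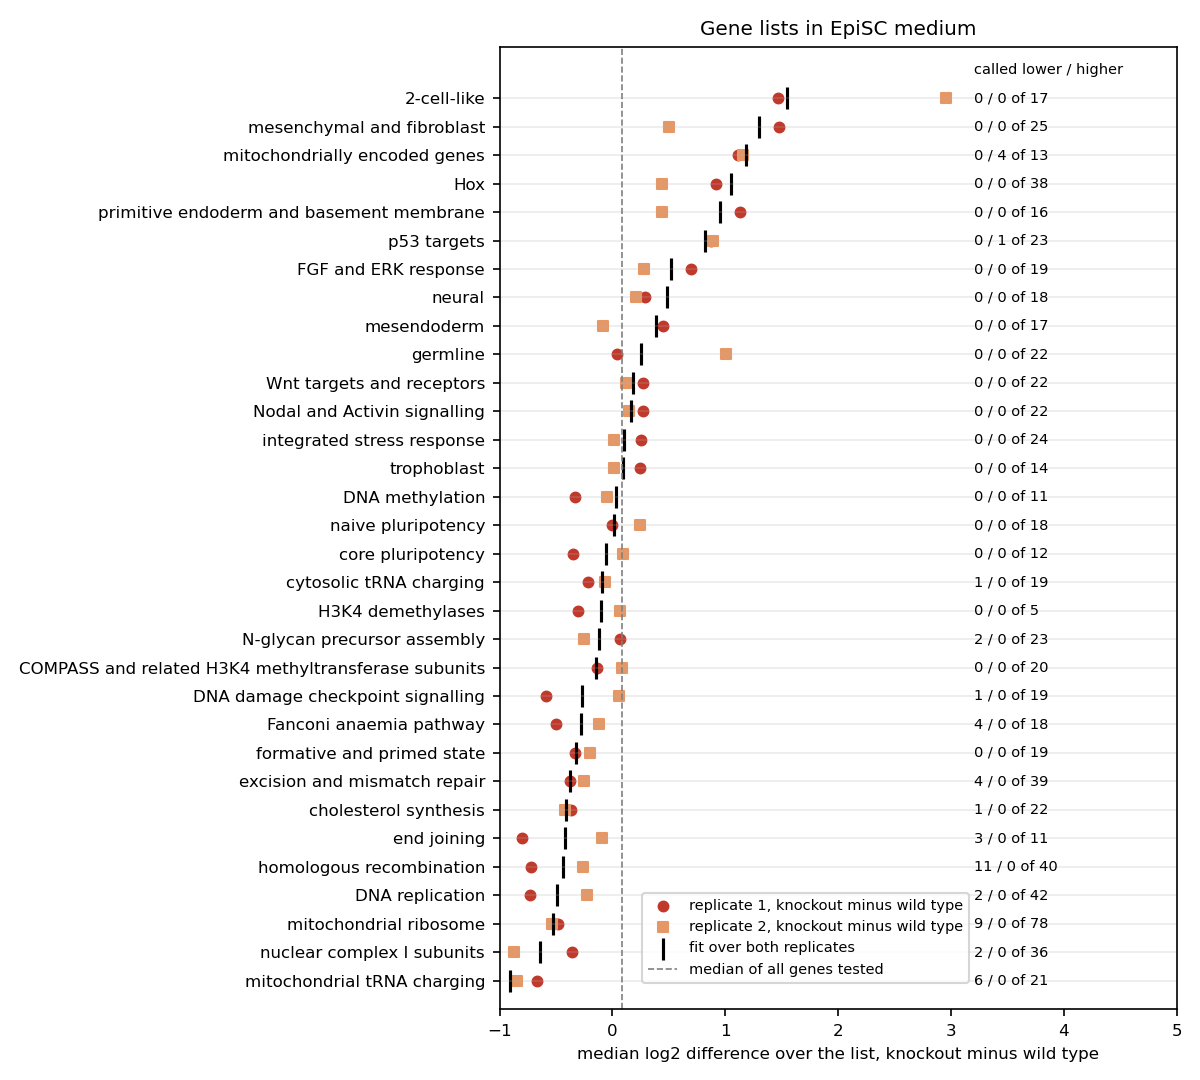
Median log2 difference of knockout minus wild type over each of the 32 gene lists, from the fit (bars) and in each replicate alone (0.1 CPM added), with the count of called genes at the right. Mitochondrial tRNA charging has the lowest median, -0.91. The 2-cell-like, mesenchymal and Hox lists are among the highest and hold no call.

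Many lowered genes start close to another gene. Of the 293 lowered protein-coding genes 118 (40.3%) start within 1000 bp of another protein-coding gene on the opposite strand, against 2194 of 16731 tested (13.1%) and 17.2% of those at or above 14.3 CPM in wild-type cells. Among the raised genes it was 3 of 24 (12.5%), among them Tmtc3 and Sema3g. Of 117 lowered genes whose neighbour was tested, 8 (6.84%) had a neighbour that was also lower and 0 had one that was higher. The median neighbour changed by -0.10. Among all 2194 head-to-head genes tested 118 were lower, and among all genes of any type 1.40%. With pairs 19 neighbours (16.2%) were lower and 7 (5.98%) higher, against 5.67% and 6.25% of all genes. The shares of all genes include noncoding genes and genes with no such neighbour, so they are not a like comparison. These shares were not tested. The 8 are 4 pairs counted from both sides: C8g with Fbxw5, Sclt1 with D3Ertd751e, Ptcd2 with Mrps27, and Tmem199 with Poldip2.

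Mcm8 and Trmt6 start 86 bp apart, and Trmt6, for a tRNA methyltransferase subunit, had 71.4 and 81.2 against 72.3 and 56.6 CPM (0.24, adjusted p = 0.713). Anapc13 and Cep63 start 238 bp apart, and the centrosomal Cep63 had 14.5 and 17.4 against 25.5 and 21.9 CPM (-0.57, adjusted p = 0.334). Rad51c and Tex14 start 111 bp apart, with Tex14 at 18.8 and 9.33 against 34.9 and 13.8 CPM (-0.80, adjusted p = 0.675). Oxld1 and Ccdc137 start 47 bp apart, and Ccdc137 was at 37.8 and 30.4 against 30.8 and 22.4 CPM (0.36).

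**Figure D4:**
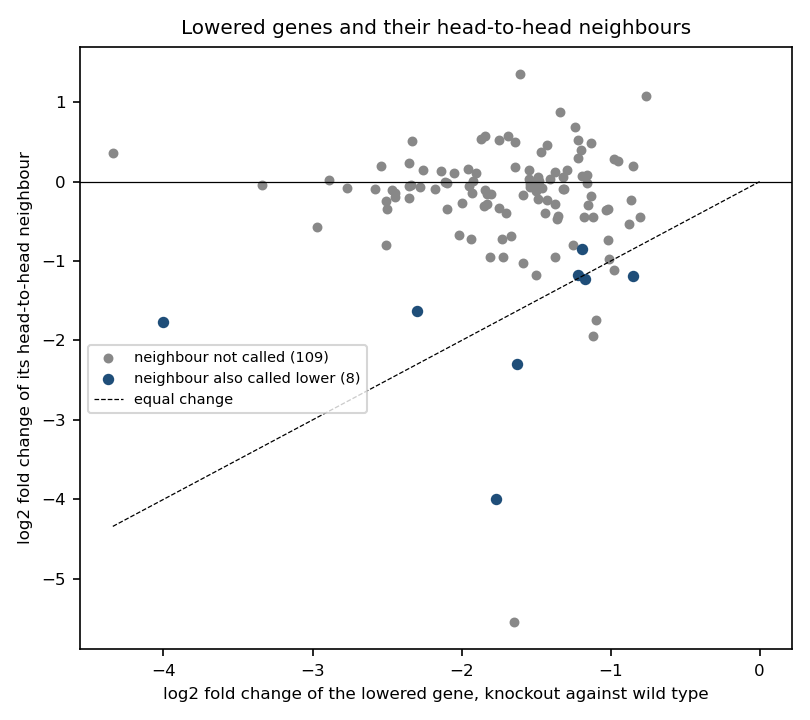
Log2 fold change of each of 117 lowered genes (horizontal) and of its head-to-head neighbour (vertical), with the line of equal change. The lowered genes were chosen for their fall, and 8 points (dark) have a neighbour that was also called lower. Most neighbours lie near 0, and the lowest point is 4930507D05Rik beside Supv3l1, listed at 0 in both knockout libraries and at 0.199 and 0.154 CPM in wild-type cells.

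The raised genes were few and each depended on single libraries. Mdm2, for the ubiquitin ligase that limits p53 (chromosome 10, 117688888 to 117710758), had 707 and 724 against 199 and 229 CPM (1.74 ± 0.433, adjusted p = 0.0392). The replicates of each genotype lay close together, yet the call ended without any 1 of the 4 libraries. Mdm2 was the 1 called gene of 23 p53 targets, of which 17 lay above 0 (median 0.82). With pairs 12 were higher and none lower, among them Perp (121 and 212 against 23.8 and 68.5 CPM, 1.98), Plk2 (209 and 164 against 88.2 and 69.0 CPM, 1.25), Btg2 (1.00), Trp53inp1 (1.06) and Ccng1 (0.84). The list's median was 0.87 in replicate 1 and 0.89 in replicate 2, and 0.84 without knockout replicate 1. The summed level was 4798 and 5681 against 2739 and 3126 CPM. Ptprv, a transcript without a coding annotation and named after its values were seen, had 29.4 and 18.3 against 5.37 and 3.26 CPM (2.46, adjusted p = 0.00409), and 0.0791 without knockout replicate 1.

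Marveld1, for a MARVEL domain membrane protein, had 181 and 137 against 40.0 and 38.9 CPM (2.01 ± 0.403, adjusted p = 0.0082). Tmtc3, for a mannosyltransferase of the endoplasmic reticulum, had 299 and 291 against 95.7 and 72.0 CPM (1.81 ± 0.41, adjusted p = 0.0204), and Pros1, for the anticoagulant protein S, 84.8 and 62.8 against 24.9 and 17.3 CPM (1.81 ± 0.383, adjusted p = 0.0127). In these 3 the replicates of a genotype lay close together. Galnt18 had 17.6 and 2.96 against 1.14 and 1.04 CPM (3.23 ± 0.79, adjusted p = 0.0354) and Ces2g 2.94 and 0.427 against 0.0569 and 0 CPM. Knockout replicate 1 was the highest library for both, and without it their adjusted p was 0.7 and 0.411. Both calls also ended without wild-type replicate 1 (0.132 and 0.0566) or wild-type replicate 2 (0.348 and 0.268). Sema3g (2.45), Spx (2.23) and the low Rpl24 gene model (1.84) were under 2 CPM throughout, and reads of Rpl24 may be shared with near-identical copies. The 1 gene higher without knockout replicate 1 was 4933438K21Rik, an antisense transcript at 0.118 and 0.605 CPM and listed at 0 in both wild-type libraries, named after its values were seen.

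Of the 13 genes encoded in mitochondrial DNA 4 rose, none fell and all 13 lay above 0 (median 1.18). These encode core subunits of the respiratory chain. mt-Nd3 had 830 and 524 against 248 and 146 CPM (1.78 ± 0.343, adjusted p = 0.00577), mt-Nd1 4498 and 3061 against 1676 and 885 CPM (1.56 ± 0.308, adjusted p = 0.00697) and mt-Nd2 2799 and 1744 against 967 and 552 CPM (1.58 ± 0.335, adjusted p = 0.0126). In all 3 replicate 1 was the higher one in both genotypes, and the groups did not overlap. mt-Nd5 (1.18) was the other call, and mt-Co1, the most abundant, had 15129 and 10289 against 10714 and 6510 CPM (0.56, adjusted p = 0.454), with overlap. With pairs 10 rose. Each of the 4 calls ended when knockout replicate 1 or wild-type replicate 2 was left out. Counts on mitochondrial genes made up 6.27% and 3.89% of knockout and 3.42% and 1.98% of wild-type libraries, the full range of the libraries in EpiSC medium. Nuclear copies of mitochondrial genes can share reads, so single values are uncertain.

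Markers of other cell types and states moved with the replicate and, with pairs, with genotype. In this bulk RNA fewer cells of a type and less RNA per cell cannot be told apart. Across 12244 genes of at least 5 CPM, the difference of replicate 1 minus replicate 2 correlated between knockout and wild type with r = 0.799, as a description over genes of 4 libraries, and 2118 genes differed over 2-fold between the knockout replicates and 2027 between the wild-type replicates. Of the 25 mesenchymal genes none was called, 11 were higher with pairs, and the list summed to 13957 and 1857 CPM in knockout and 3634 and 1417 CPM in wild-type cells. Col1a1, a fibrillar collagen, had 2273 and 89.0 against 517 and 71.5 CPM, and the matrix protein gene Postn 437 and 5.45 against 96.6 and 3.42 CPM. The replicates differed far more than the genotypes, and the list's median went from 1.30 to -1.45 without knockout replicate 1. That fit had no pairs and kept wild-type replicate 1, so it mixes the replicate difference with genotype. Within replicates 1 and 2 (0.1 CPM added) the list's median difference was 1.48 and 0.50. None of the 7 defining mesenchymal markers was at 0 in any of the 4 libraries, but some were close to it in replicate 2. Lum was at 0.0356 CPM in knockout and 0.115 CPM in wild-type replicate 2, and Dcn at 0.154 CPM in wild-type replicate 2. Thy1 had 48.8 and 7.80 against 14.1 and 18.8 CPM, so it was lower in knockout replicate 2. The list's sum in the other 8 libraries in EpiSC medium ranged from 2555 to 10124 CPM.

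The 17 genes of the 2-cell-like state, a rare totipotent-like state marked by Zscan4 genes, summed to 967 and 59.0 CPM in knockout and 350 and 4.11 CPM in wild-type cells, against 0.314 to 2.17 CPM in the other 8 libraries in EpiSC medium. None was called and 14 were higher with pairs. The median of 1.55 was -1.61 in the unpaired fit without knockout replicate 1, which kept wild-type replicate 1. Within replicates 1 and 2 the median difference was 1.47 and 2.96. Gm8300 was among the 14 (45.8 and 3.03 against 10.2 and 0.192 CPM, 2.56, adjusted p = 2.50e-04 with pairs). Zscan4a had 285 and 16.8 against 102 and 1.31 CPM (adjusted p = 0.00271 with pairs and 0.642 without). These genes are near-identical copies, so counts may be split among them. Hox genes, the positional regulators of the body axis, summed to 205 and 50.9 against 99.1 and 30.0 CPM. With pairs 5 of the 38 were higher, against 6.25% of all genes. Their median was 1.05, or -0.07 in the unpaired fit without knockout replicate 1. Within replicates 1 and 2 it was 0.92 and 0.44. Basement membrane genes of primitive endoderm summed to 7312 and 1889 against 2071 and 1360 CPM, with 5 of 16 higher with pairs, among them Sparc (1.40), which is also on the mesenchymal list, Nid1 (1.21) and Col4a1 (1.26). The list's median of 0.95 was 0.01 in the unpaired fit without knockout replicate 1. Sparc, Nid1 and Col4a1 then changed by 0.05, -0.07 and -0.02. Within replicates 1 and 2 the list's median was 1.13 and 0.44. Within replicate 2 Sparc, Nid1 and Col4a1 differed by 0.51, 0.72 and 0.45. Of the defining endoderm markers Sox17 and Foxa2 were at or under 1.21 CPM in all 4 libraries, while Gata4 had 7.09 and 7.90 against 4.21 and 6.76 CPM and Gata6 had 6.19 and 4.20 against 2.59 and 2.77 CPM. Of the trophoblast markers Elf5 was at 0 in both knockout libraries and in wild-type replicate 2, Gata3 had 11.8 and 1.89 against 3.16 and 1.77 CPM, and Hand1 had 1.72 and 1.78 against 0.455 and 0.192 CPM (adjusted p = 0.00631 with pairs and 0.529 without). The part of such cells in the results above was not tested.

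**Figure D5:**
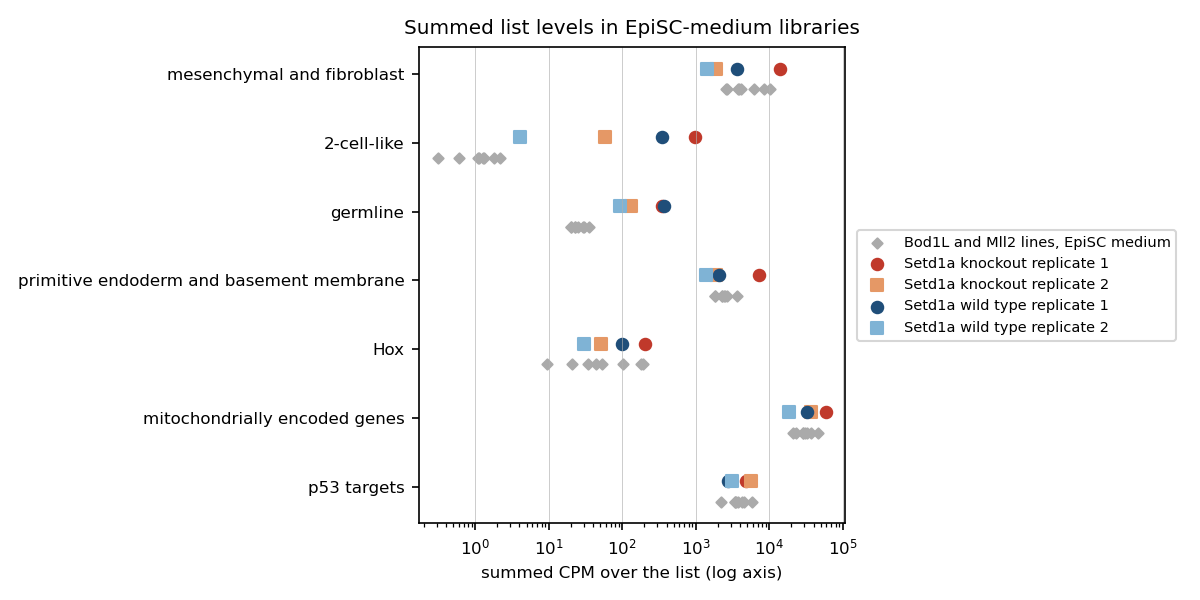
Summed CPM of 7 gene lists on a log axis in the 4 Setd1a libraries and, in grey, the 8 Bod1L and Mll2 libraries in EpiSC medium. Replicate 1 of both genotypes lies above its partner for the mesenchymal, 2-cell-like, germline, primitive endoderm, Hox and mitochondrially encoded lists. For p53 targets and mitochondrially encoded genes both knockout libraries lie above both wild-type libraries.

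Pluripotency genes showed no call without pairs. With pairs Pou5f1 fell from 262 and 1296 CPM to 156 and 601 CPM (-0.93, adjusted p = 0.0124), and without pairs its adjusted p was 0.546. With pairs the de novo methyltransferase gene Dnmt3b (73.3 and 365 against 282 and 517 CPM, -1.22), Sox3 (-1.47), Zic2 (-1.02), Tead2 (-0.90) and Lin28a (-0.96) were also lower, as was the naive gene Dppa3 (-1.20), and Dppa2 (0.89) and the naive factor Tbx3 (0.95) were higher. In all, pairs called 5 of 19 formative and primed genes lower and 2 higher, against medians of -0.33 and -0.20 in replicates 1 and 2. In the fit without pairs that left out knockout replicate 1, the list's median was 0.00. There Dnmt3b changed by -0.13, Zic2 by -0.21 and Pou5f1 by -0.37, while Tead2 (-0.64), Lin28a (-0.51) and Sox3 (-2.02) stayed further below 0. That fit kept wild-type replicate 1. Within replicate 2 (0.1 CPM added), Dnmt3b differed by -0.50, Zic2 by -0.29 and Pou5f1 by -1.11. Tead2 differed there by -0.75, Lin28a by -0.64 and Sox3 by -1.38. Of the 22 genes of Nodal and Activin signalling, the pathway that the medium feeds, pairs called 1 lower, Foxh1 (-0.65). The 2 higher were Inhba (17.5 and 1.495 against 2.47 and 0.422 CPM, 2.44) and Inhbb (23.6 and 7.01 against 7.56 and 4.15 CPM, 1.23). Over all genes pairs called 5.67% lower and 6.25% higher, so the Nodal and Activin counts are not read as a pathway result. In the unpaired fit without knockout replicate 1 the differences of Inhba and Inhbb were 0.03 and 0.26. Those of Foxh1 and Dppa2 were 0.18 and -0.37. Within replicate 2 Inhba differed by 1.61, Inhbb by 0.74, Foxh1 by -0.29 and Dppa2 by 0.87, each in the direction called with pairs. Of the 19 genes that respond to FGF and ERK 4 were higher with pairs: Fosl1 (2.60), Myc (0.98), Spry2 (0.89) and Phlda1 (0.84).

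The same cells in 2i and FCS gave values for the same genes from other libraries, in the same fit with a shared estimate of spread. Knockout replicate 1 in 2i carries a library number of the later series, unlike the other Setd1a libraries in 2i. In 2i 338 genes were lower (1.44%) and 59 higher (0.251%), and in FCS 174 lower (0.74%) and 5 higher (0.0213%). Of the 328 genes lowered in EpiSC medium 206 were also lowered in 2i, which is 62.8% of them and 60.9% of the 2i genes, and 146 in FCS, 44.5% of them and 83.9% of the FCS genes. A total of 130 were lowered in all 3 media, 106 were called in EpiSC medium but in neither other medium, and 326 and 325 lay below 0 in 2i and FCS. Of the 33 raised genes 8 were also raised in 2i and 2 in FCS, Serpine2 and Ptprv, and these 2 in all 3 media.

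Side by side, Det1 changed by -3.06, -3.51 and -3.38 in EpiSC, 2i and FCS media, Cbr4 by -3.83, -3.54 and -3.26, and Gatb by -2.84, -2.81 and -2.90. Larger falls in EpiSC medium were listed for Oxld1 (-4.34, -2.39 and -1.84), C8g (-4.00, -1.78 and -1.47), Fancd2 (-1.87, -0.78 and -1.34) and Nthl1 (-1.84, 0.00 and 0.01). The test of the difference, EpiSC minus the mean of 2i and FCS, called no gene (0%, lowest adjusted p of 1). Of 23501 genes, 359 had an unadjusted p below 0.05, a smaller share than that threshold alone would pass. With pairs edgeR (1374 unadjusted) also called 0, as did DESeq2. Among the genes above, set out for their larger falls in EpiSC medium, the unadjusted p was 0.00222 for C8g and 0.0104 for Oxld1. It was 0.0166 for Fancd2 and 0.00275 for Nthl1. None passed adjustment.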

How the data were processed

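Per the file headers the authors deposited raw counts per gene from featureCounts 1.5.2, run with Ensembl 87 models, strand setting 2 and a mapping quality minimum of 1. GSNAP and the builds GRCm38 and mm10 are from the submitters' processing notes. Of the 49763 lines, 92 spike-ins (0 counts) were removed, which left 49671 genes. Symbols and gene types came from GENCODE M21. Positions and start distances came from the gene models deposited with the counts (Ensembl 87), and promoter windows from RefSeq.

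Counts were fitted with edgeR 4.0.16 in R 4.3.3 (TMM, quasi-likelihood test, filterByExpr at a count of 10 or more, Benjamini-Hochberg below 0.05) in 1 model of 36 libraries and 18 groups, with 18 residual degrees of freedom. The shared spread includes other lines and media. A second fit had the 18 replicate pairs as a block and 9 knockout effects (9 degrees of freedom). The labels state no pairing. Numbers were taken as pairs because replicate differences of knockout and wild type correlated in all 9 line and medium combinations (r 0.166 to 0.737, and 0.707 here), which is inferred from these same data. On simulated counts for this comparison (23049 genes), the test recovered 9 of 100 genes changed by a log2 of 1. It recovered 71 of 100 changed by 2 and called 3 unchanged genes. The changed genes were drawn from those of at least 5 CPM in wild-type cells. Libraries were simulated independently, without the replicate differences that knockout and wild type share.

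Alternatives were DESeq2 1.42.0, its size factors, no filter, fewer libraries and each library left out. SE values belong to log2 fold changes. Named genes are the targeted and related genes, and the 14 lowest and 12 highest called protein-coding genes whose groups do not overlap. They include up to 4 called and 2 most abundant members of each list. Also named are 6 genes that lose their call without knockout replicate 1 and differ most between the knockout replicates. Printed promoters are of such named genes and of head-to-head repair genes. Several genes within this rule are left out of the text and not reported here. The remaining names are members of the lists or were added after their values were seen. The members and the 32 lists (746 genes, 735 tested) were chosen with earlier results of these data known. A difference of depth (25.2 M to 34.1 M counts) limits genes of low level.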

Additional observations from a re-analysis of the deposited data

How the results depend on the processing

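Of 328 lower and 33 higher genes, the replicate block gave 1333 and 1468, DESeq2 576 and 184, no filter on low counts 320 higher, and the 4 libraries alone 0 and 0. Of the 61 named genes that were called, none changed sign under a setting run here. Of the 109 that were not called, 44 changed sign under at least 1, 27 of them without knockout replicate 1. Among the 27 were Postn (2.14 to -3.20) and Zscan4a (1.55 to -1.62). That fit had no pairs and kept wild-type replicate 1. Within replicates 1 and 2 (0.1 CPM added) Postn differed by 2.17 and 0.66, and Zscan4a by 1.48 and 3.59. Leaving out 1 library gave 101 to 342 lower and 1 to 144 higher genes (1 without knockout replicate 1, 2 without wild-type replicate 2, Serpine2 and Cntnap3, and 51 and 144 without wild-type replicate 1 and knockout replicate 2). Chosen after seeing the data, the fit without replicate 1 of both groups gave 61 lower and 1 higher (mt-Nd1), and without replicate 2 of both 58 and 4 (Blcap, Cd81, Itm2b and Ncam1), each with 1 library a group, assumed to vary like the other groups. The difference between media called 0 genes under each setting run except no filter on low counts (13). Of 61 called named genes, 61 kept their call with the block and with DESeq2, 60 with DESeq2 size factors and 53 without the filter. Without knockout replicate 1, knockout replicate 2, wild-type replicate 1 and wild-type replicate 2, 22, 43, 46 and 25 kept it. The cause of these changes was not tested. DESeq2 size factors moved the median of all genes from 0.08 to 0.10. With 2 cultures a group, tamoxifen in knockout cells only and replicates that stand apart, changes near 2-fold were mostly beyond the test. Genes under about 1 CPM were not among the simulated changed genes, and their values are uncertain.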

Other observations

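Among called genes whose call ended without knockout replicate 1, the knockout replicates differed most in the processed pseudogene Gm21960, with 8.70 and 1.18 CPM against 0.597 and 0.538 CPM in wild-type cells (adjusted p = 0.0319, and 0.803 without that library). The lowered transcript 2410012E07Rik had 0.0392 and 0.249 against 1.45 and 1.46 CPM (adjusted p = 0.0342).

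Neural genes had 4 of 18 members higher and 1 lower with replicates as pairs, against 6.25% and 5.67% of all genes. The adhesion gene Ncam1 had 247 and 45.0 against 40.5 and 37.7 CPM, where knockout replicate 1 stood apart from the other 3 libraries. Sox1, the early neural factor, went the other way with 10.8 and 14.3 against 25.9 and 27.2 CPM (-1.10 and adjusted p = 0.0219 with pairs, adjusted p = 0.771 without), and its groups did not overlap. Sox1 was also higher in EpiSC medium than in 2i and FCS in wild-type cells (log2 difference 5.67, adjusted p = 0.0031).

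Of 24 genes of the integrated stress response, 4 were higher with pairs, against 6.25% of all genes, and none without. Ddit3, for the transcription factor CHOP, had 25.1 and 42.9 against 8.24 and 16.8 CPM (1.48 and adjusted p = 0.00463 with pairs, adjusted p = 0.0795 without). Slc7a11, a cystine transporter gene, had 19.7 and 4.88 against 3.53 and 2.30 CPM (adjusted p = 0.0147 with pairs). The list summed to 2359 and 4362 CPM in knockout and 2120 and 4628 CPM in wild-type cells, so here replicate 2 was higher in both genotypes.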
